A study of Mus musculus with 3 samples.

Results

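Autotaxin is a secreted enzyme, encoded by *Enpp2*, and its gene belongs to the ecto-nucleotide pyrophosphatase/phosphodiesterase (ENPP) family. The expression of *Enpp1* to *Enpp6* and of the lipid phosphate phosphatase genes *Ppap2a*, *Ppap2b* and *Ppap2c* was examined in the choroid plexus epithelium (CPE), the cell layer that makes the cerebrospinal fluid. The members were all non-control probes whose gene name in the scanner files was 1 of these 9 symbols, which gave 16 of the 41174 probes on the array. Reference gene tables now call the last 3 genes *Plpp1*, *Plpp3* and *Plpp2*, and the names of the array are kept here.

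CPE cells were cut by laser dissection from frozen brain sections of 3 healthy adult C57BL/6 mice, and their amplified RNA was labelled with the red dye Cy5. Each mouse was hybridised to its own Agilent mouse array against 1 common reference, RNA of RPE/choroid (RPE, the pigment epithelium of the retina) from the same strain, labelled with the green dye Cy3. The 3 CPE samples are 1 group, mice 1, 2 and 3, all untreated. The dyes were never swapped, so a preference of a probe for a dye stays in its ratio, and the reference, as a single RNA, adds no spread between animals.

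Autotaxin removes choline from lysophosphatidylcholine and thereby makes lysophosphatidic acid (LPA), a lipid signal that acts through G protein-coupled receptors. The choroid plexus is a known site of autotaxin production, and the enzyme is released into the cerebrospinal fluid. The lipid phosphate phosphatases of the *Ppap2* genes end the LPA signal by removing its phosphate. The other ENPP enzymes share a catalytic domain with autotaxin but mostly cut other substrates: *Enpp1* and *Enpp3* encode surface enzymes that hydrolyse nucleotides, and the *Enpp1* enzyme is the main source of extracellular pyrophosphate, an inhibitor of mineral growth.

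The arrays differed in signal over background. Between 18933 and 35233 probes were well above background in the CPE channel and between 28259 and 34654 in the reference channel, both highest on the array of mouse 3. The median background of that array was 363 for CPE, while those of mice 1 and 2 had 81.2 and 82.6, so dim probes are least certain there. Of 12 detected markers of the CPE, 10 were higher in CPE, of 11 RPE and melanocyte markers 10 were higher in the reference, and all 8 photoreceptor markers measured were higher in the reference, whose label names RPE and choroid. The labelled tissues therefore carried their defining markers, and the reference also carried those of the neighbouring retina.

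*Enpp2* was the member with by far the strongest signal in CPE. Its probe on the RefSeq transcript of autotaxin (probe 2; chromosome 15, 54669137 to 54669194, mouse build mm8, minus strand) had a scanned mean intensity of 65394, 65394 and 65396 in mice 1, 2 and 3. All 3 values lay at the upper limit of the scanner, and the spot was marked as saturated in every mouse, as were 16 probes in all. In the reference the same spot had intensities of 2033, 2368 and 2614, which were not saturated. After normexp background correction and loess normalization, the log2 ratio of CPE over reference was 3.72, 3.87 and 3.83 in the 3 mice. The 3 ratios lay close together, but their spread cannot reflect differences between mice in a channel that was at its limit. The SE and adjusted p given next rest on this capped spread. Because the CPE signal was capped, the fold is a lower bound under this normalization: CPE was at least 14.0-fold higher in the mean of 3 arrays (log2 ratio 3.81, SE 0.15, limma adjusted p 6.71e-06, higher in 3 of 3 mice). This bound sets the normalized signals of both dyes against each other and is open to dye bias, and it moves with the processing, to a log2 ratio of 3.77 when no background was corrected. As this is bulk RNA, more cells that make a transcript and more transcript per cell cannot be told apart.

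*Enpp2* was not a weak transcript in the reference either. A percentile rank orders each probe among all probes of a channel, and high expression here means above the 90th percentile, as in the classes of the study. The autotaxin probe ranked at 94.4, 95.1 and 96.8 on the 3 arrays in the reference channel and at percentile 99.99 by its mean in CPE. Thus the probe was in the high class of both tissues while the signal was larger in CPE. Oligodendrocytes also make autotaxin, and their markers were examined beside it. Of 8 tested oligodendrocyte markers, 3 were higher in CPE (among them *Cnp* at 1.24 and *Cldn11* at 1.47) and *Mal* was lower at −3.69. The summed scanned intensity of the 9 markers on the array was 7640 to 13213 in CPE and 6807 to 8154 in the reference. These sums were not normalized between the dyes and so do not compare the tissues. None of the markers was at background in all 3 mice. Their part in the *Enpp2* ratio was not tested.

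The other probe named *Enpp2* (probe 1; chromosome 15, 54703502 to 54703561) lay 34365 bp upstream and was designed on a brain cDNA of unclassified product. Its CPE intensity was 77.3, 80.4 and 423 in the 3 mice, and 85.9, 87.2 and 265 in the reference. It was well above background on the array of mouse 3 alone, in both channels, and was not tested. The 2 probes of this gene therefore lay at opposite ends of the ranking, at percentiles 8.49 and 99.99.

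**Figure D1:**
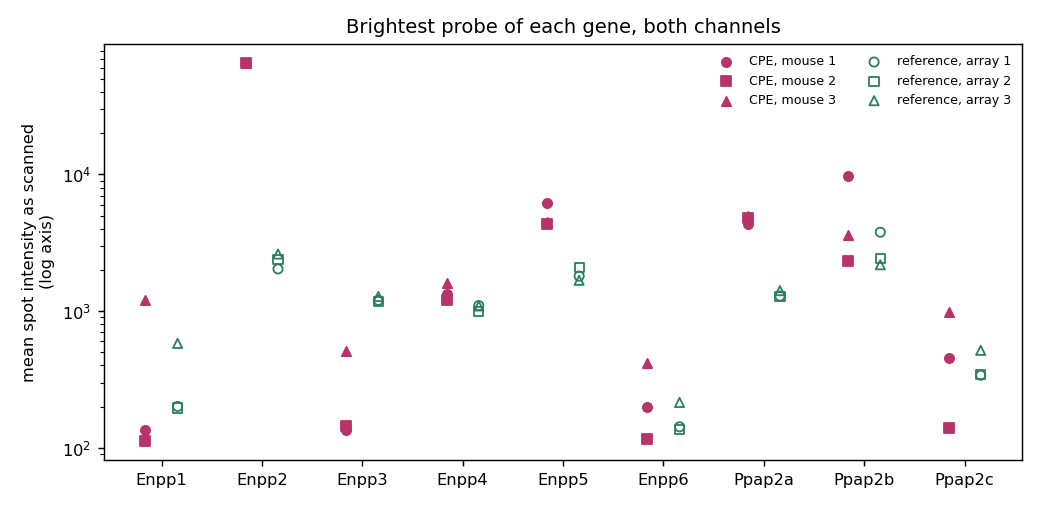
Scanned mean spot intensity (log axis) of the brightest probe of each gene, with CPE in filled symbols and the reference in open symbols, 1 symbol per array. The 3 CPE values of *Enpp2* coincide at the scanner's limit of about 65394, and *Enpp3* is brighter in the reference on every array. Before normalization *Ppap2a*, *Enpp5* and *Enpp4* are brighter in CPE on every array, although the normalized ratios of *Enpp4* were below 0.

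*Enpp3* showed the opposite pattern. It was measured by 3 probes on chromosome 10 (minus strand), and the 2 nearest its 3′ end were lower in CPE. Probe 3 (24462676 to 24462735) had CPE intensities of 135, 145 and 508 and reference intensities of 1198, 1180 and 1277. These scanned signals, not normalized between the dyes, were lower in CPE on each array. Its log2 ratios were −3.85, −3.13 and −2.95, with a mean of −3.31 (SE 0.20, adjusted p 3.29e-05), a fold of 9.92. Probe 2 (24463282 to 24463341), 606 bp upstream, had CPE intensities of 143, 120 and 480 and reference intensities of 840, 787 and 493. For probe 2 the scanned signal was again lower in CPE on each array, but both channels came close on the array of mouse 3. Its log2 ratios were −3.13, −2.66 and −1.42, with a mean of −2.40 (SE 0.30, adjusted p 0.000792). The reference of this probe was dimmer on the third array although its RNA was the same, and the spread of its ratios was larger than that of 98.1% of tested probes. Probe 1 (24507091 to 24507150) lay 44415 bp upstream of probe 3 and was not above background in any sample.

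By rank, *Enpp3* probe 3 moved from the high class in the reference (percentile 90.7) to the low class in CPE (49.5), and probe 2 from moderate (81.3) to low (37.3). Probe 3 lay at the edge of both classes: without mouse 1 it was moderate in CPE, at percentile 56.0. No other member ranked lower in CPE by that much. The markers of RPE and melanocytes, photoreceptors and stroma moved the same way, at 10 of 11, 8 of 8 and 5 of 6 tested, as did those of neurons at 5 of 7 and of macrophages at 3 of 5. Fewer were lower among markers of astrocytes (2 of 6), endothelium (1 of 8), oligodendrocytes (1 of 8), the CPE (0 of 12) and the ependyma (0 of 3). Over all tested genes, by 1 probe each, 11.7% were lower. The summed scanned intensity of the RPE and melanocyte list, not normalized between the dyes, was 7084 to 13345 in CPE and 170750 to 199106 in the reference. Of its genes *Tyr* alone was at background in all 3 CPE samples. Their part in the *Enpp3* ratio was not tested.

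*Enpp1* lies next to *Enpp3* on the same strand, with 0 protein-coding genes between them, and did not share its ratio. Its probe (chromosome 10, 24330841 to 24330900) had CPE intensities of 135, 112 and 1208 and reference intensities of 200, 195 and 580. The array of mouse 3 was the bright one in both channels, and in mouse 2 the CPE signal was not well above background. The log2 ratios were −0.31, −0.07 and 0.14, with a mean of −0.08 (95% interval −0.46 to 0.30, adjusted p 0.728). No difference was thus detected, and a 2-fold difference either way lies outside this interval of normalized ratios. The CPE signals of 135 and 112 were dim, however, and the offset added in background correction draws dim ratios towards equality. The interval therefore cannot exclude a 2-fold difference in the transcript itself. Its rank in CPE was 49.2, 54.4 and 78.4 in the 3 mice, and 59.1, 57.7 and 75.8 in the reference, so both channels ranked highest on the third array.

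*Enpp4* and *Enpp5* are neighbours on chromosome 17, on opposite strands and with their 3′ probes 10181 bp apart. *Enpp4* encodes a surface enzyme known for cleaving adenosine polyphosphates on the endothelium, whereas the role of *Enpp5* is less well defined. The *Enpp5* probe (43549219 to 43549272) had CPE intensities of 6194, 4361 and 4500 and reference intensities of 1802, 2073 and 1679. It ranked at 96.3, 96.7 and 96.0 in the 3 mice, in the high class of each, and at 94.1 by its mean in the reference. Its log2 ratios of 0.66, 0.46 and 0.56 were all above 0, with a mean of 0.56 (SE 0.15, adjusted p 0.0217). With 1.47-fold the difference stayed below the 2-fold limit. The SD of its 3 ratios, 0.10, was the smallest among the tested members that were not saturated.

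The 2 *Enpp4* probes were moderate in both tissues. Probe 1 (43562311 to 43562370) had CPE intensities of 688, 256 and 1038 against 449, 466 and 719 in the reference, and log2 ratios of −0.01, −0.75 and −0.51. Probe 2 (43559454 to 43559513), 2857 bp nearer the 3′ end, had 1337, 1211 and 1614 against 1097, 989 and 1089, and log2 ratios of −0.62, −0.05 and −0.39. All 6 ratios were below 0, yet neither mean passed the test (−0.43, adjusted p 0.108, and −0.35, adjusted p 0.143). The scanned intensities of probe 2 were higher in CPE on every array, so the sign of its ratio depended on the normalization. With median centring in place of loess its mean was 0.24. The 95% interval of *Enpp5*, 0.21 to 0.91, did not overlap those of *Enpp4*, −0.86 to 0.01 and −0.75 to 0.05. The difference between the neighbours was not itself tested.

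*Enpp6*, a choline-specific phosphodiesterase known from newly formed oligodendrocytes, was near background. Probe 2 (chromosome 8, 48592947 to 48593006) had CPE intensities of 198, 116 and 415 and was well above background in mice 1 and 2. Its reference intensities of 142, 135 and 214 were not well above background on any array. The CPE signal of mouse 3 was not well above background either, so no fold is given. Probe 1 (48567747 to 48567806), 25200 bp upstream, had intensities of 118, 98.6 and 688 in CPE against 160, 147 and 326 in the reference, and its log2 ratios of 0.07, 0.17 and 0.33 were not tested. Both probes were in the low class in CPE, at percentiles 44.8 and 48.9. Probe 2 lay at the edge of its class. It was moderate under 3 alternative rankings, and reached percentile 57.5 without mouse 3.

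**Figure D2:**
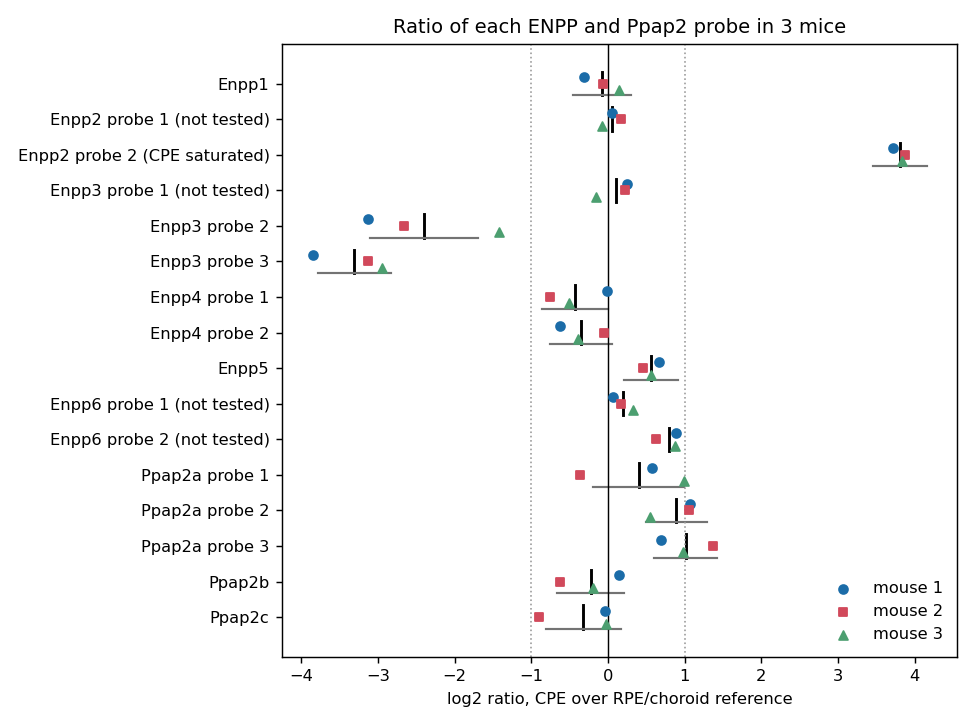
Log2 ratio of CPE over reference for all 16 probes, with 1 symbol per mouse, a vertical bar at the mean and a horizontal grey line for the 95% interval of tested probes; probes of a gene are numbered from 5′ to 3′ and dotted lines mark a 2-fold difference. *Enpp2* probe 2 stands at 3.81, which is a lower bound, *Enpp3* probes 2 and 3 at −2.40 and −3.31, and the means of all other probes lie between −0.43 and 1.01.

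The lipid phosphate phosphatases remove the phosphate of LPA and related lipids. *Ppap2a*, encoding LPP1, was brighter in CPE, but its 3 probes on chromosome 13 (plus strand) differed. The probe nearest the 3′ end (probe 3; 113988623 to 113988680) had CPE intensities of 4330, 4824 and 4932 and reference intensities of 1287, 1273 and 1410. Its log2 ratios of 0.70, 1.36 and 0.98 gave a mean of 1.01 (SE 0.18, adjusted p 0.00373), a fold of 2.02 that lay only just past the limit. Without mouse 2 it was 0.84, and the call was lost, as it was with no background correction (1.00) and with array weights (0.93). Probe 2 (113987847 to 113988377) had CPE intensities of 2056, 998 and 1733 against 544, 436 and 657, and log2 ratios of 1.08, 1.06 and 0.54. Its mean of 0.89 (SE 0.17, adjusted p 0.00572) was below 2-fold, and past it without mouse 3 (1.07). Probe 1 (113972427 to 113977677), whose coordinates span far more than the length of a probe, had CPE intensities of 4182, 1414 and 5272 against 1348, 1365 and 1486. Mouse 2 was the low sample here, and the log2 ratios of 0.58, −0.37 and 0.99 gave a mean of 0.40 that did not pass the test (95% interval −0.19 to 0.99, adjusted p 0.253).

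In the few members with more than 1 tested probe, the value of mouse 2 differed with the position of the probe. Relative to the mean of mice 1 and 3, the log2 ratio of mouse 2 was −1.16 at *Ppap2a* probe 1, 0.25 at probe 2 and 0.53 at probe 3. At *Enpp4* it was −0.49 at the 5′ and 0.46 at the 3′ probe, and at *Enpp3* −0.39 at probe 2 and 0.26 at probe 3. In all 3 genes with more than 1 tested probe, mouse 2 was thus relatively lower at the 5′ probe and relatively higher at the 3′ probe. This is a description of 3 genes, chosen with earlier results known, and its cause was not tested. No share over all genes with more than 1 tested probe is given. It therefore cannot be told whether 3 genes of the same direction are unusual. The probes of *Ppap2a* also differ in the transcripts the scanner files list for them. Probe 1 is listed for transcript variant 2, probe 2 for both RefSeq transcripts, and probe 3 for an Ensembl transcript that probe 1 lacks, so position and transcript cannot be told apart here.

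**Figure D3:**
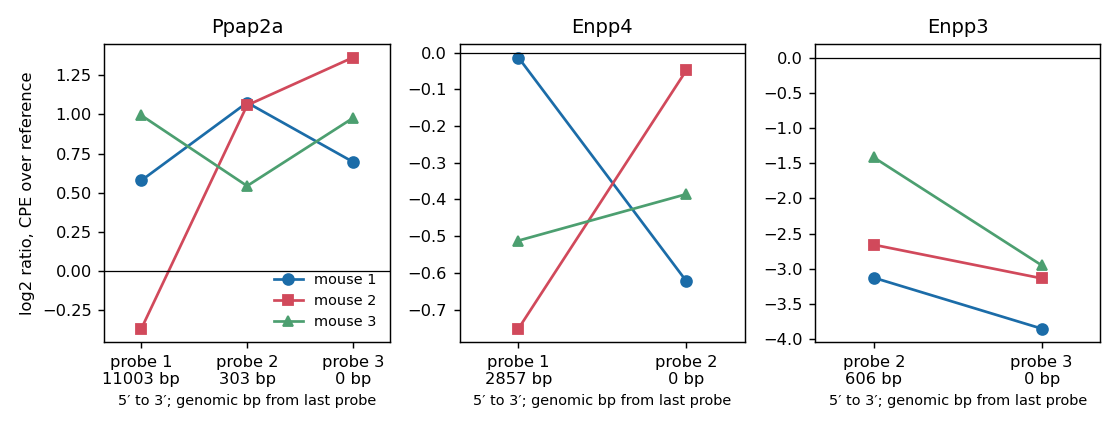
Log2 ratio of CPE over reference in each mouse (lines) at the tested probes of 3 genes, ordered 5′ to 3′ and labelled with the genomic distance in bp from the last probe; the vertical axes differ between panels. The line of mouse 2 runs from −0.37 at probe 1 of *Ppap2a* to 1.36 at probe 3 and from −0.75 to −0.05 at *Enpp4*, whereas for *Enpp3* all 3 mice were lower at the probe nearest the 3′ end.

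*Ppap2b*, encoding LPP3, was in the high class of both tissues. Its probe (chromosome 4, 104729003 to 104729062) had CPE intensities of 9704, 2324 and 3573 and reference intensities of 3772, 2407 and 2180, and it ranked at 97.7, 93.7 and 94.9 in the 3 mice. The log2 ratios of 0.14, −0.62 and −0.20 overlapped 0, with a mean of −0.23 (95% interval −0.66 to 0.21, adjusted p 0.378). *Ppap2c*, encoding LPP2, was moderate in both tissues. Its probe (chromosome 10, 78933790 to 78933849) had CPE intensities of 451, 140 and 984 and reference intensities of 339, 343 and 516. Mice 1 and 3 were level with the reference, with log2 ratios of −0.04 and −0.02, and mouse 2 was lower at −0.90 (mean −0.32, 95% interval −0.81 to 0.17, adjusted p 0.266). Of the 3 phosphatase genes, only *Ppap2a* had a probe past the threshold.

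Across all members, 12 of the 16 probes, from 8 of the 9 genes, passed the detection filter (well above background in CPE, in the reference or in both, on every array) and were tested. Above background in CPE in all mice were 11 of the 16, against 44.9% of all probes. Of the tested probes, 4 were past the threshold of an adjusted p under 0.05 and a 2-fold change, 2 higher and 2 lower in CPE, which is 33.3% of the probes tested against 17.3% of all probes. In all, 7.09% of tested probes were past it and higher and 10.2% past it and lower, so that 41.1% of all calls were higher. With median centring in place of loess this share was 67.0%, and the members had 5 higher and 2 lower probes. The 4 calls came from 3 genes, and probes of 1 gene share a target, so that few independent values stand behind this share. Without the fold limit, 6 of the 12 had an adjusted p under 0.05, against 39.2% of all probes, and 9 of the 12 had ratios of 1 sign, against 65.4%. The median log2 ratio of the 12 was −0.15, and that of all tested probes −0.04.

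In order of their mean ratios, *Enpp2* was followed by *Ppap2a* probes 3 and 2, *Enpp5*, *Ppap2a* probe 1, *Enpp1*, *Ppap2b*, *Ppap2c*, *Enpp4* and *Enpp3*. The 95% interval of *Enpp2*, 3.46 to 4.16, overlapped that of no other member. It rests on capped CPE signals, so its width does not measure spread between mice and its upper end is no limit. From *Ppap2a* probe 3 down to *Enpp4* each interval overlapped that of the next in order. Differences between members were not tested. The intervals of both *Enpp3* probes overlapped each other and none of the rest.

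By rank in CPE, 5 of the 16 probes (31.2%) were in the high class, against 10% of all probes by definition. These were *Enpp2* probe 2, *Enpp5*, *Ppap2a* probes 1 and 3 and *Ppap2b*. A further 5 were moderate, 4 low and 2 very low. The 5 high probes were in the high class of the reference as well, where *Enpp3* probe 3 joined them. A rank also reflects how well a probe hybridises, so ranks of different genes do not order their transcript amounts.

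**Figure D4:**
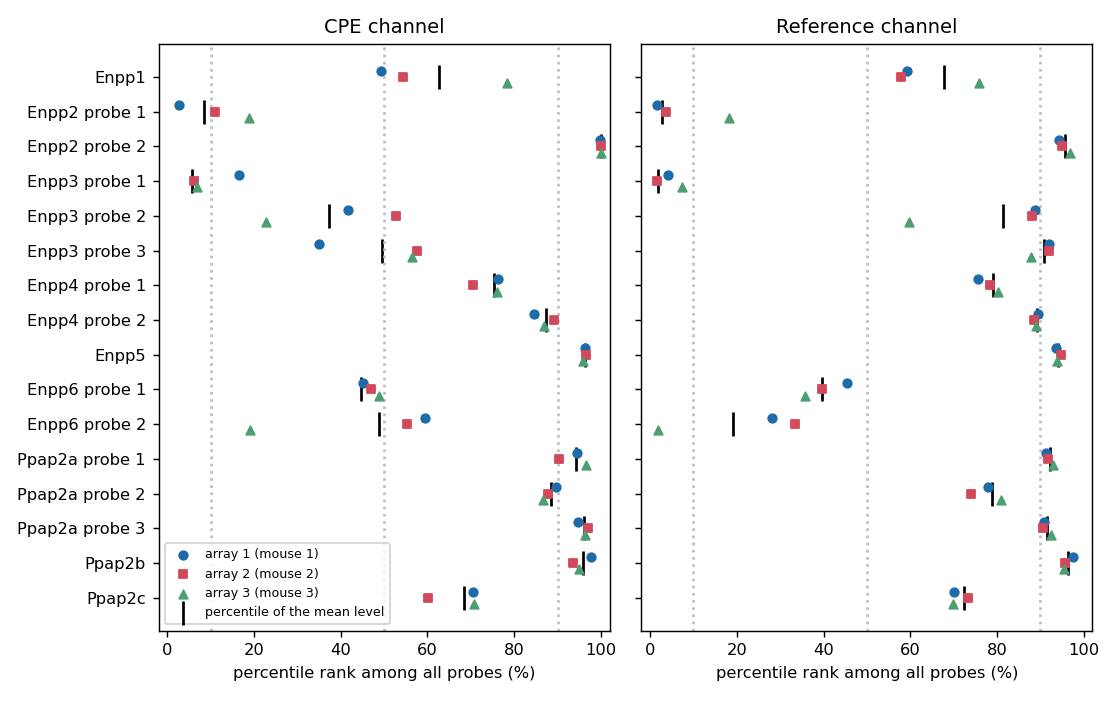
Percentile rank of each member probe among all 41174 probes in the CPE channel (left) and the reference channel (right), with 1 symbol per array and a bar for the percentile of the mean level; dotted lines at 10, 50 and 90 separate the very low, low, moderate and high classes. *Enpp5* varies little between arrays and *Enpp2* probe 2 is held at the top in CPE by saturation, whereas *Enpp1* ranks highest on the array of mouse 3 in both channels and *Enpp3* probes 2 and 3 lie further right in the reference.

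The spread between mice was set beside that of the reference channel for the 10 member probes above background on all arrays in both channels and not saturated. The median SD of the log2 level was 0.44 in CPE and 0.29 in the reference, against 0.34 and 0.31 over 17945 probes. *Ppap2b* (0.88 in CPE, 0.30 in the reference) and *Ppap2a* probe 1 (0.85 and 0.22) varied most, and *Enpp4* probe 2 (0.12 and 0.17) and *Enpp5* (0.14 and 0.30) least. These SDs depend on how an array's offset between its dyes is treated. With loess before Aquantile the CPE medians were 0.37 for the members and 0.38 over those 17945 probes. They were 0.34 for both with quantile normalization, and 1.12 and 1.05 with median centring of each channel. The higher median of the members was thus not kept under every treatment.

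Further genes of LPA, sphingosine 1-phosphate (S1P) and pyrophosphate metabolism were followed with the brightest probe of each. Of 65 genes, 58 were found on the array and 53 were tested. In CPE 6 were higher (11.3%) and 4 lower (7.55%), against 9.06% and 11.7% of 15416 genes, so that these shares were near the background. With median centring, 11 were higher and 1 lower. The median log2 ratio was 0.09, and −0.02 over all those genes.

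By their brightest probes, all 6 LPA receptor genes were above background in every CPE sample. The share of 44.9% is over all probes, not only the brightest of each gene, so it is no like comparison. *Lpar2* and *Lpar3* were in the low class in CPE, at percentiles 48.3 and 49.8. Past the threshold was 1 of the 6. *Lpar1*, the most widely expressed of the receptors, had log2 ratios of −1.80, −0.59 and −0.91 (mean −1.10, SE 0.24, adjusted p 0.00901). Its other probe was at −0.60 (adjusted p 0.0182), below 2-fold. All 3 mice lay below the reference, but without mouse 1 the call was lost at −0.75 (adjusted p 0.0570), and under median centring it was lost at −0.75 (adjusted p 0.0997). It was also below 2-fold with no background correction (−0.97). The means of *Lpar2* to *Lpar6* lay between −0.19 and 0.32. Of the S1P receptors and enzymes, 0 of 9 tested genes were past the threshold, with *S1pr3* at 0.56 (adjusted p 0.0461, below 2-fold) highest. The S1P lyase *Sgpl1* and the phosphatase *Sgpp1* were in the high class in CPE, at percentiles 92.2 and 92.8. Of the related phosphatase and ENPP genes, 0 of 6 were past the threshold. *Ppapdc2* was highest at 0.92 (adjusted p 0.00476) and *Lpin2* lowest at −0.81 (adjusted p 0.00448), both below 2-fold, while the other *Lpin2* probes were at 0.18 and −0.21 and did not pass the test.

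Of the enzymes that make LPA precursors or break LPA down, 3 of 18 were higher and 1 lower. *Lypla1*, a lysophospholipase, was counted by its brightest probe, at −0.31 (adjusted p 0.182), but its other probes were lower and past the threshold, at −1.04 (adjusted p 0.00601) and −1.09 (adjusted p 0.00454). *Gde1*, a glycerophosphodiester phosphodiesterase, had log2 ratios of 1.74, 1.66 and 1.77 (mean 1.72, SE 0.15, adjusted p 0.000139) and ranked at percentile 98.1 in CPE. The mice agreed closely, and all lay above the reference. *Lcat*, which frees lysophosphatidylcholine, the substrate of autotaxin, while esterifying cholesterol, was higher at 1.17 (SE 0.18, adjusted p 0.00218), though not past 2-fold with no background correction (0.93). It was above background on all 3 arrays in CPE but on 2 of 3 in the reference, and so was tested only because of the channel in which it was higher. *Pla1a*, a phosphatidylserine-specific phospholipase, was just past the limit at 1.00 (SE 0.21, adjusted p 0.00866), and was not called without mouse 1 (0.98), without mouse 2 (0.75) or with no background correction (0.91). *Pla2g7*, the plasma platelet-activating factor acetylhydrolase, had log2 ratios of −2.02, −1.88 and −0.69 (mean −1.53, SE 0.26, adjusted p 0.00334). Each lay below the reference, with mouse 3 nearest to it, and under median centring it stayed below 2-fold (−0.91).

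Of the enzymes, transporters and adenosine receptors of pyrophosphate and extracellular nucleotide metabolism, 3 of 14 were higher and 2 lower. *Entpd3*, a surface enzyme that removes phosphates from nucleotides, had log2 ratios of 2.60, 2.81 and 0.26 (mean 1.89, SE 0.45, adjusted p 0.0128). Mice 1 and 2 lay far above the reference and mouse 3, whose array had the brightest background, close to it, and without mouse 3 the mean was 2.71. The related *Entpd5* (1.79, SE 0.20, adjusted p 0.000451) and *Entpd6* (1.35, SE 0.24, adjusted p 0.00413) were also higher, although another *Entpd6* probe had a ratio of −0.02. *Entpd2* was lower at −1.23 (SE 0.21, adjusted p 0.00327), but not past 2-fold under median centring (−0.84). *Nt5e*, which turns AMP into adenosine on the cell surface, was lower with log2 ratios between −2.02 and −1.73 (mean −1.91, SE 0.16, adjusted p 0.000103), and its other probe had −0.64. *Ank*, needed for pyrophosphate release, and *Alpl*, the phosphatase that degrades pyrophosphate, were in the high class in CPE, at percentiles 91.7 and 94.1. Their log2 ratios of −0.33 (adjusted p 0.117) and 0.68 (adjusted p 0.0269) did not reach 2-fold.

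**Figure D5:**
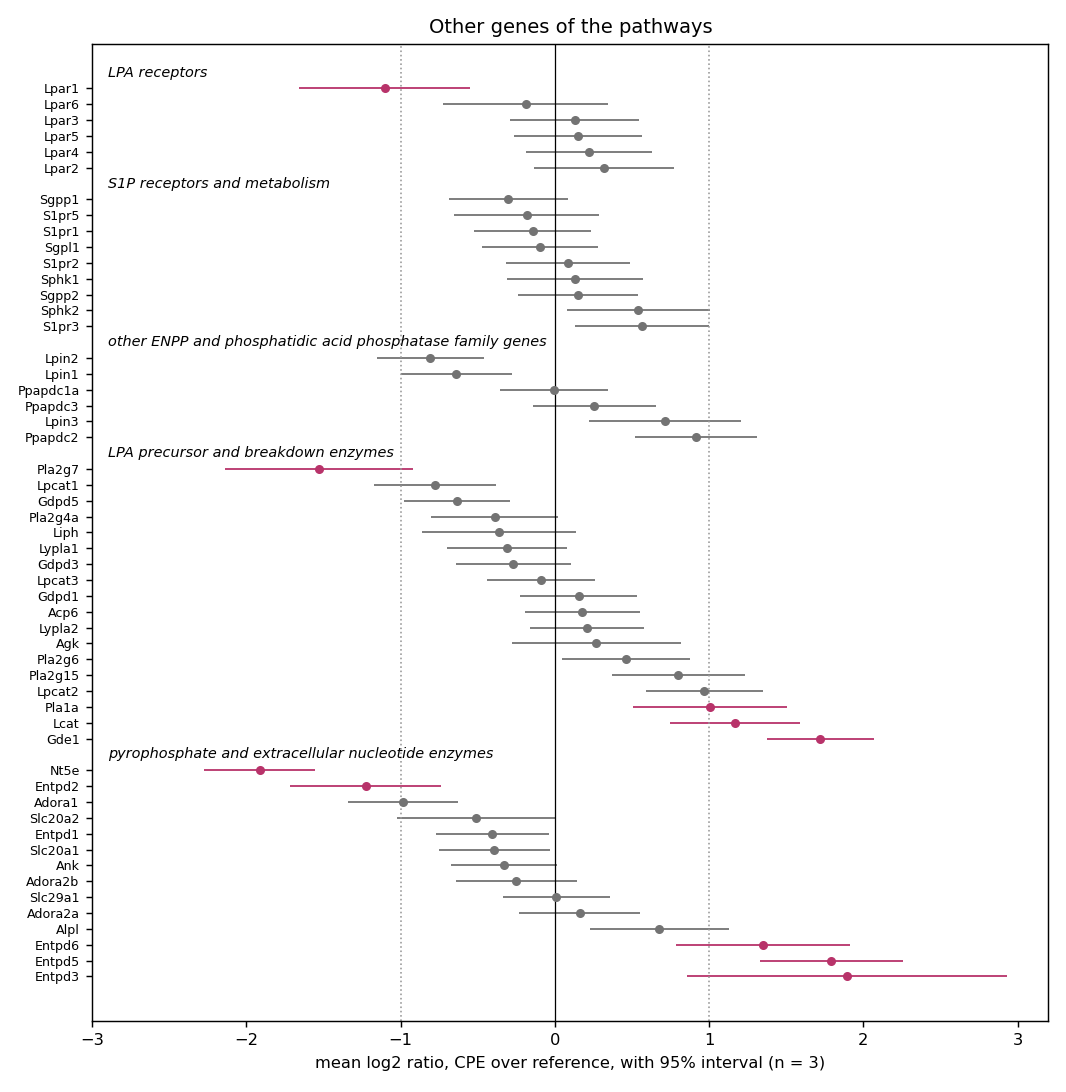
Mean log2 ratio of CPE over reference for the 53 other pathway genes tested, by list, with the 95% interval over 3 mice; red points are past the threshold and dotted lines mark a 2-fold difference. The 6 genes past it and higher are *Gde1*, *Lcat*, *Pla1a*, *Entpd3*, *Entpd5* and *Entpd6*, and the 4 lower are *Lpar1*, *Pla2g7*, *Nt5e* and *Entpd2*.

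The genes whose ratios were most like those of the autotaxin probe were found by the Euclidean distance over the 3 log2 ratios, among the brightest tested probes of 15415 other genes. They were *1500015O10Rik*, now named *Ecrg4*, at a distance of 0.22, *Wdr16*, now *Cfap52*, at 0.24, *Hs6st2* at 0.24, *Slc23a2* at 0.34 and *Slc2a12* at 0.35. All 5 were in the high class in CPE, between percentiles 96.2 and 99.98. Selection for ratios far above the reference favours such ranks, so they are no separate likeness. Like *Enpp2*, *Ecrg4* was at the scanner's limit in every CPE sample, so this likeness rests on capped signals, and the other 4 were compared with a lower bound. *Cfap52* encodes a protein of motile cilia. Of 6 listed markers of the ependyma, the ciliated lining of the ventricles beside the choroid plexus, 3 were on the array and tested. Of these, *Foxj1* (2.98) and *Dnah5* (1.25) were higher in CPE. Whether these 2 genes tell ependyma from CPE was not tested. *Dnah5* was above background on 1 of 3 reference arrays, so that it was tested only through CPE. The third marker, *Rarres2*, was lower by less than 2-fold (−0.74, adjusted p 0.00765) and made up most of the summed intensity of the list. That sum was 8029 to 10177 in CPE and 4387 to 5237 in the reference. It is of scanned intensities, not normalized between the dyes, and so does not compare the tissues. Their part in these ratios was not tested.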

How the data were processed

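The members and gene lists were chosen with earlier results of these data known. The authors scanned the arrays with Agilent Feature Extraction 9.5.3.1, and the deposited tables hold intensity values on a linear scale for both channels, with flags for background, saturation and outliers, and a log10 ratio of the processed signals. A deposited table of log2 levels, normalized by the authors with Aquantile, served as an alternative for ranks. Its columns had medians of 6.86, 6.82 and 6.85, and rank correlations of 0.998 to 0.9997 with the CPE levels computed here. No rank of the autotaxin probe was obtained from this deposited table.

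Intensities were analysed with R 4.3.3 and limma 3.58.1. Control and outlier spots were left out. Ratios used normexp (offset 50) and loess. The 25841 probes marked well above background on every array, for CPE or for the reference, entered 1 intercept-only limma fit of their log2 ratios, and p-values were adjusted over all of them by Benjamini-Hochberg. Expression classes were ranks of the mean log2 intensity of the CPE channel without background correction, after Aquantile. The bound for *Enpp2* is the difference of the normalized channel means. All members, all of their probes, and pathway genes past the threshold were named, with the brightest probe standing for a pathway gene. Of the planned alias names, 2 belonged to proteoglycan genes and were dropped. Coordinates are those of the files on build mm8, for which no annotation was used here, so exons are not given. Current symbols and gene order came from the RefSeq table, in which 11 of 16 member accessions were found. The number of arrays limits the precision. The values of 1 marker gene are not reported here. Scripts were tested on simulated data.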

Additional observations from a re-analysis of the deposited data

How the results depend on the processing

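The 3 calls of *Enpp2* probe 2 and *Enpp3* probes 2 and 3 held under all 11 alternatives, with log2 ratios of 3.77 to 4.69, −3.58 to −2.04 and −4.40 to −2.94 and, apart from the test against a 2-fold change, adjusted p of 6.22e-08 to 0.00183, 8.56e-05 to 0.00821 and 4.52e-07 to 0.00197. *Ppap2a* probe 3 was called under 7 of 11. Median centring in place of loess moved the overall median ratio from −0.04 to 0.09 and the share of higher calls from 41.1% to 67.0% (3743 higher, 1842 lower). It gave 7 member probes past the threshold, 5 of them higher, adding *Enpp5* at 1.30, *Ppap2a* probe 1 at 1.05 and probe 2 at 1.43, and turned the uncalled *Enpp4* probe 2 to 0.24 and *Ppap2b* to 0.52. With a mouse left out, the uncalled *Enpp1* ratio ranged from −0.19 to 0.036, turning without mouse 1. The 4462 probes past the threshold became 6762 with the scanner's log ratio, for which the cause was not tested, and 1414 when tested against a 2-fold change, a stricter test, which left 3 of 10 pathway genes. With a mouse left out there were 4029 to 5311 probes, 3 to 5 member probes and 9 to 14 pathway genes. The median SD in CPE, 0.44 for the members and 0.34 over 17945 probes, became 0.37 and 0.38 with loess before Aquantile. It was 0.34 for both with quantile normalization, and 1.12 and 1.05 with median centring of each channel. Ranking only probes above background in CPE moved *Ppap2a* probe 1 to the moderate class (percentile 87.4), *Enpp4* probe 1 (45.3) and *Ppap2c* (30.1) to the low class, and *Enpp3* probes 2 (0.11) and 3 (3.21) to the very low class. No paired analysis was possible because the samples are 1 group, and each array had its own slide, so no slide block could be fitted.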
